A study of Mus musculus with 14 samples.

Results

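The BCL2 family decides whether a cell releases the contents of its mitochondria and dies. Here 10 of its genes were followed through 14 RNA-seq libraries of BCR-ABL-transformed mouse marrow cells: the survival genes Bcl2, Bcl2l1 and Mcl1, the BH3-only genes Bcl2l11, Bbc3, Pmaip1, Bmf and Bid, and the effectors Bax and Bak1. The genes were chosen by name, with earlier results of these data known, and all 10 were found among the 24463 gene symbols of the files. In every group, lineage-negative bone marrow cells received p210 BCR-ABL retrovirus 2 times, 24 h apart, and the Lin-c-Kit+Sca1+GFP+ fraction, called leukemic stem cells by the labels, was sorted 48 h after isolation. The untreated cells came from control mice (WT, 3 libraries) or from mice lacking Tcf1 and Lef1 (dKO, 3 libraries), 2 transcription factors that act with beta-catenin and are encoded by Tcf7 and Lef1. Further control cells were treated for 6 h with the solvent DMSO (3 libraries), with 20 µM prostaglandin E1 (PGE1, 3 libraries) or with 20 µM prostaglandin E2 (PGE2, 2 libraries). The labels do not give the age or strain of the mice, the alleles or the Cre driver, and do not say what the replicates are; nothing ties them to different mice or dishes, so each p-value reflects the scatter among these libraries, which may be technical. With the sort this soon after transduction, the groups are freshly transduced cells in culture, not cells from a leukemic animal.

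The BCL2 proteins meet at the outer mitochondrial membrane. The effectors BAX and BAK1 assemble into pores through which cytochrome c escapes and starts the caspase cascade. BCL2, BCL-XL (from Bcl2l1) and MCL1 hold the effectors and their activators in check, and the BH3-only proteins, which share with the rest of the family little more than a short helix called BH3, bind into the groove of the survival proteins or activate the effectors. In BCR-ABL cells the kinase is known for keeping BIM (Bcl2l11) low and the survival genes high, and MCL1 is needed by normal blood stem cells.

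The BH3 helix is the feature by which the family is recognised, and it carries the contact between killers and survival proteins. It is built around a leucine followed, 4 residues on, by a small residue and an aspartate. The DNA that codes for it is shown for 9 of the members, read 5′ to 3′ on the coding strand from the GENCODE M21 annotation of build GRCm38, with the codons of the leucine and of the small residue and aspartate in capitals. Each stretch of 39 bases lies inside 1 coding exon and is the only match to the pattern in its protein. The small residue is glycine in 7 of the 9 genes and alanine in Bbc3 and Bmf.
Bcl2, chr1:106712575-106712613, minus strand: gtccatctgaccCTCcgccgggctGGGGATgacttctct
Bcl2l1, chr2:152829697-152829735, minus strand: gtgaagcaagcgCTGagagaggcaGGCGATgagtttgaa
Mcl1, chr3:95659424-95659462, plus strand: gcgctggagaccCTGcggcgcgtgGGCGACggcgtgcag
Bcl2l11, chr2:128147138-128147176, plus strand: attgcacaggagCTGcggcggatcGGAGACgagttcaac
Bbc3, chr7:16313761-16313799, plus strand: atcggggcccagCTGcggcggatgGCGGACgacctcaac
Bmf, chr2:118545100-118545138, minus strand: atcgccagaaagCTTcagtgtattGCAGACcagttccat
Bid, chr6:120897289-120897327, minus strand: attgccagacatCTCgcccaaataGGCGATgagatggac
Bax, chr7:45465997-45466035, minus strand: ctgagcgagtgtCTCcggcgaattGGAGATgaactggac
Bak1, chr17:27022531-27022569, minus strand: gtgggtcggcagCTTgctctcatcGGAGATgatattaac

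The order of the levels was the starting point for each comparison. In the WT cells Bax was the most abundant member, at a mean of 120 FPKM (fragments per kilobase of gene model, scaled to the size of the library, a level per length that can be compared between genes). It was followed by Mcl1 at 67.2, Bak1 at 59.3, Bid at 23.2, Bcl2l1 at 14.1, Pmaip1 at 9.36, Bbc3 at 7.38, Bcl2 at 6.44, Bcl2l11 at 1.69 and Bmf at 0.558 FPKM. No neighbours in that order overlapped among the 3 WT libraries, nor among the DMSO or the PGE2 libraries. Bax, Mcl1 and Bak1 were the top 3 in all 5 groups, although Bak1 stood above Mcl1 in the dKO cells, at 68.8 against 46.8. The lower ranks moved: in the PGE1 cells Bbc3, at 31.7 FPKM, and Bcl2l11, at 18.6, passed Bid, at 11.4, and Bcl2l1, at 10.5, whose ranges overlapped each other. In the dKO cells the ranges of Bcl2l1, Pmaip1, Bbc3 and Bcl2 overlapped from each to the next.

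**Figure D1:**
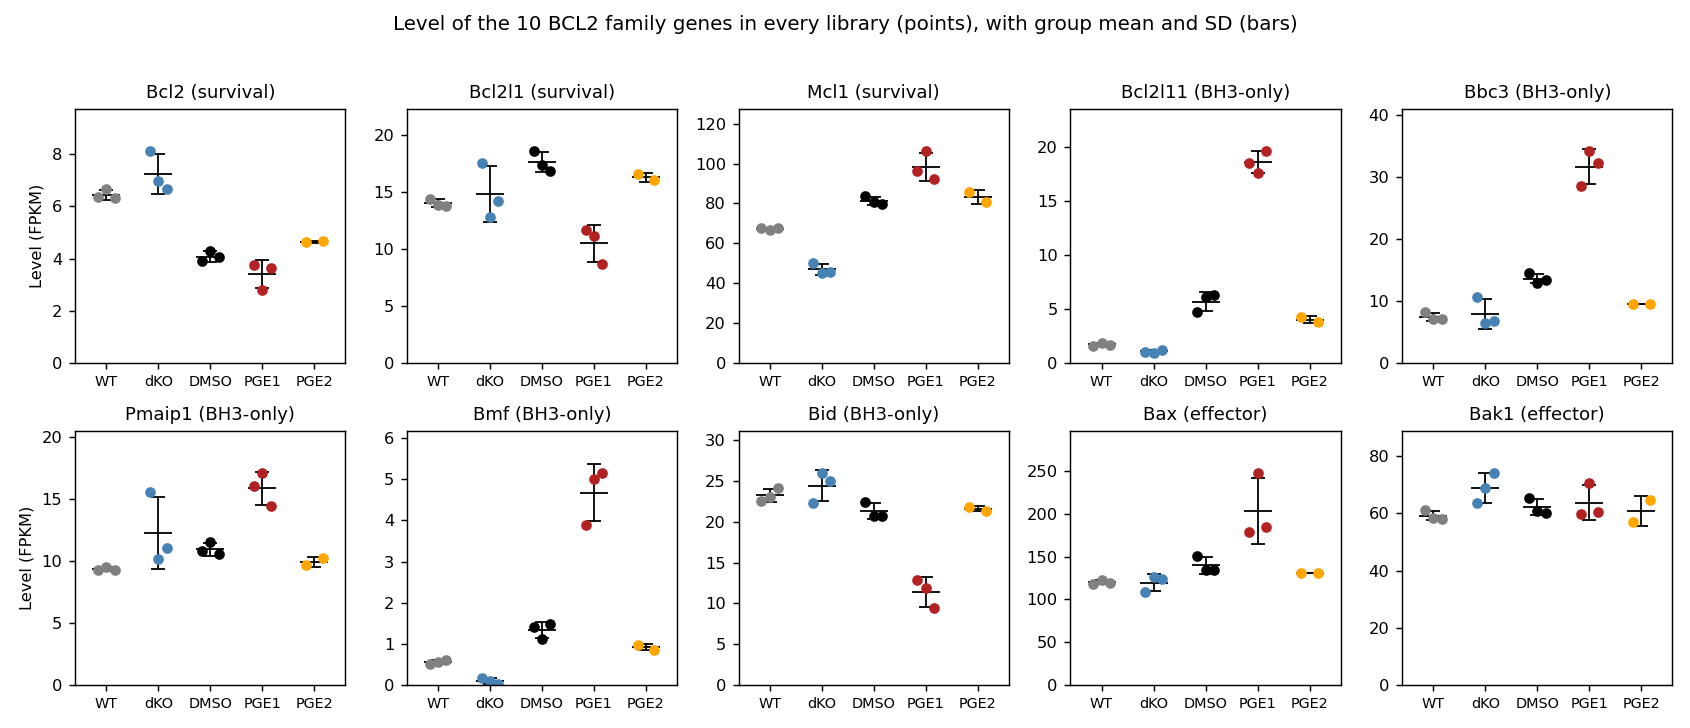
Level in FPKM (linear vertical axis from 0, its own scale in each panel) of the 10 BCL2 family genes in each library, 1 point per library for 3 WT, 3 dKO, 3 DMSO, 3 PGE1 and 2 PGE2 libraries, with the group mean and SD as black bars. In the PGE1 panels Bcl2l11 (17.6 to 19.6 FPKM), Bbc3 (28.6 to 34.2) and Bmf (3.88 to 5.15) sit above every other library, and Bid (9.41 to 12.9) sits below every other.

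Some facts of the libraries bear on all that follows. The untreated libraries held 31.3 to 33.8 M reads and the treated ones 19.0 to 22.7 M, as recovered from the steps of the FPKM values. Among genes with many reads, pairs of replicates varied 1.83 to 2.92 times as much as counting alone gives in WT, PGE2 and the other pair of DMSO libraries, but 14.9 to 17.1 times in pairs with DMSO replicate 1, 13.99 to 14.7 times in pairs with dKO replicate 1 and 41.0 to 42.5 times in pairs with PGE1 replicate 2. The remaining dKO and PGE1 pairs gave 5.18 and 11.3 times. These 3 libraries stand apart, and results were also computed without each of them. The genotype field calls dKO replicate 1 wild type and DMSO replicate 1 Tcf1/Lef1-deficient, against their titles, which set the groups here. By expression both fell with their titles: Tcf7 lay at 0.0220 to 0.142 FPKM in the dKO libraries and at 0.850 to 1.53 in the DMSO libraries. The defining markers of the sort were present, Kit at a mean of 23.0 to 42.2 FPKM in the 5 groups and Ly6a (Sca1) at 11.3 to 14.9 in all but the dKO cells, where it was 3.12. Genes from the marker lists of other cell types were present too: the 11 neutrophil genes summed to 6977 to 7316 FPKM in WT. Mpo, Elane and Prtn3 were the largest in that sum, at means of 2499, 2030 and 1158 FPKM. The others ran from 1.45 for Mmp9 to 608 for S100a8. Lyz2 of monocytes and neutrophils had a mean of 454. The sort was for lineage-negative cells, and which cells this RNA came from was not tested. Cd3d, Cd3e and Cd3g of T cells were at a mean of 0.391 FPKM or less in every group. Exons of Bcl2 share 558 bases with the antisense gene D630008O14Rik, those of Bak1 share 614 with Ggnbp1 on the other strand and those of Bax share 192 with the overlapping gene Gm45808, so reads in these stretches are uncertain.

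With PGE1 for 6 h the RNA of most of the family differed from that with DMSO, and the largest differences were in BH3-only genes. Against DMSO, 8 of the 10 members passed the test (adjusted p under 0.05 in limma over 11242 genes), 6 of them higher and 2 lower. Of all genes tested 49.1% passed, 23.6% higher and 25.5% lower, so the members' share is to be read against a background in which about every other gene was called. The median log2 difference was 0.38 over the members and 0.01 over all genes tested, on the scale of log2(FPKM + 1), which understates changes of low genes.

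Bcl2l11, which encodes BIM, the BH3-only protein that binds all of the survival proteins, stood at 4.67, 6.06 and 6.25 FPKM in the 3 DMSO libraries and at 18.5, 17.6 and 19.6 in the 3 PGE1 libraries. The lowest PGE1 library was far above the highest DMSO library. The mean rose 3.28-fold, from 5.66 ± 0.861 to 18.6 ± 1.01 (SD, n = 3 each), a log2 difference of 1.56 ± 0.10 (SE; limma adjusted p = 9.474e-06). Bbc3, which encodes PUMA, a p53 and FOXO target that also binds all survival proteins, was at 14.4, 12.9 and 13.4 FPKM with DMSO and at 28.6, 34.2 and 32.2 with PGE1. Every PGE1 value was again above every DMSO value, and the mean rose 2.33-fold (log2 difference 1.16 ± 0.08, SE; limma adjusted p = 9.76e-06). Bmf, whose protein is released from the cytoskeleton in detached or stressed cells, was the least abundant member, at 1.41, 1.12 and 1.48 FPKM with DMSO (117 to 145 reads per library). It reached 3.88, 4.999 and 5.15 with PGE1 (392 to 497 reads), a 3.50-fold rise of the mean with no overlap (log2 difference 1.28 ± 0.12, SE; limma adjusted p = 4.649e-05).

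Pmaip1, which encodes NOXA, a BH3-only protein known for binding MCL1, rose less. Its levels were 10.8, 11.5 and 10.5 FPKM with DMSO and 16.1, 17.1 and 14.4 with PGE1, with no overlap and a 1.45-fold higher mean (log2 difference 0.50 ± 0.08, SE; limma adjusted p = 0.0007209). Bid went the other way. This gene, whose protein is cut by caspase-8 and links death receptors to mitochondria, was at 22.4, 20.8 and 20.7 FPKM with DMSO and at 12.9, 11.8 and 9.41 with PGE1. The highest PGE1 library was below the lowest DMSO library, and the mean was 1.87-fold lower (log2 difference -0.86 ± 0.10, SE; limma adjusted p = 0.0001895).

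The survival genes split. Bcl2l1, which gives BCL-XL, fell from 18.6, 17.4 and 16.9 FPKM with DMSO to 11.6, 11.1 and 8.68 with PGE1, a 1.68-fold lower mean without overlap (log2 difference -0.71 ± 0.10, SE; limma adjusted p = 0.0005245). Mcl1, whose product is a short-lived survival protein, rose from 83.6, 80.5 and 79.5 to 96.2, 106.2 and 92.4 FPKM, a 1.21-fold higher mean without overlap (log2 difference 0.27 ± 0.07, SE; limma adjusted p = 0.01076). Bcl2 stood at 3.89, 4.29 and 4.04 FPKM with DMSO and at 3.77, 2.80 and 3.63 with PGE1, and did not pass (log2 difference -0.21, 95% interval -0.44 to 0.01; limma adjusted p = 0.1062). Because Mcl1 is the largest of the 3, their summed level was 104.7 to 120.1 FPKM with PGE1 and 100.4 to 106.1 with DMSO, ranges that overlap.

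Of the effectors, Bax rose and Bak1 did not pass. Bax stood at 151, 134 and 134 FPKM with DMSO and at 179, 248 and 184 with PGE1. PGE1 replicate 2, the library that stands apart from its group, was the highest of them. The mean was 1.46-fold higher (log2 difference 0.53 ± 0.12, SE; limma adjusted p = 0.006837), and without that library and DMSO replicate 1 the log2 difference was 0.43 (limma adjusted p = 0.000327). Bak1 was at 65.5, 60.9 and 60.3 FPKM with DMSO and at 59.9, 70.8 and 60.6 with PGE1, which overlap (log2 difference 0.03, 95% interval -0.16 to 0.22; limma adjusted p = 0.7793).

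Added up by role, Bcl2l11, Bbc3, Pmaip1 and Bmf together came to 31.3, 31.6 and 31.6 FPKM in the DMSO libraries and to 67.0, 73.8 and 71.4 in the PGE1 libraries. Bid was left out of this sum after its opposite direction was seen; with it, the BH3-only genes summed to 52.3 to 53.7 FPKM with DMSO and 79.9 to 85.7 with PGE1. All 8 called members kept their call and direction in every setting in which they were tested, the fit without both DMSO replicate 1 and PGE1 replicate 2 included. Genes from the marker lists of other cell types moved with the treatment. Of 11 neutrophil genes 9 fell and none rose. Their summed level was 4700 to 5591 FPKM with DMSO and 1822 to 2679 with PGE1, with no gene of the list at 0. Mpo, Elane and Prtn3 had the largest part in that fall, from means of 1331, 1275 and 743 FPKM to 296, 448 and 365. Of 7 erythroid genes tested 4 rose and 2 fell. The 8 listed summed to 47.6 to 50.3 FPKM with DMSO and 94.2 to 112.3 with PGE1. Car2 had the largest part in that rise, from a mean of 17.2 to 65.2 FPKM. The globin genes went down, Hbb-b1 from 15.9 to 4.18 and Hba-a1 from 4.39 to 1.45. Of 10 monocyte and macrophage genes 6 fell and 2 rose. Their sums overlapped, at 827 to 972 FPKM with DMSO and 842 to 1073 with PGE1. In these sums Cd14 alone went from a mean of 46.6 to 296.7 FPKM. Ctss went from 136.6 to 75.5 and Adgre1 from 17.4 to 3.37. Sex-linked genes differed too: the 4 Y-linked genes were called higher with PGE1, and Xist lower, at 3.54 to 8.14 FPKM against 9.05 to 11.2. Y-linked Eif2s3y was at a mean of 22.2 FPKM with PGE1 and 16.5 with DMSO, so both groups held Xist and Y-linked RNA. The treatment and a different mix of male and female cells cannot be told apart here. The part of all these marker genes in the members' differences was not tested. In such bulk RNA fewer cells of a type and less RNA per cell cannot be told apart.

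**Figure D2:**
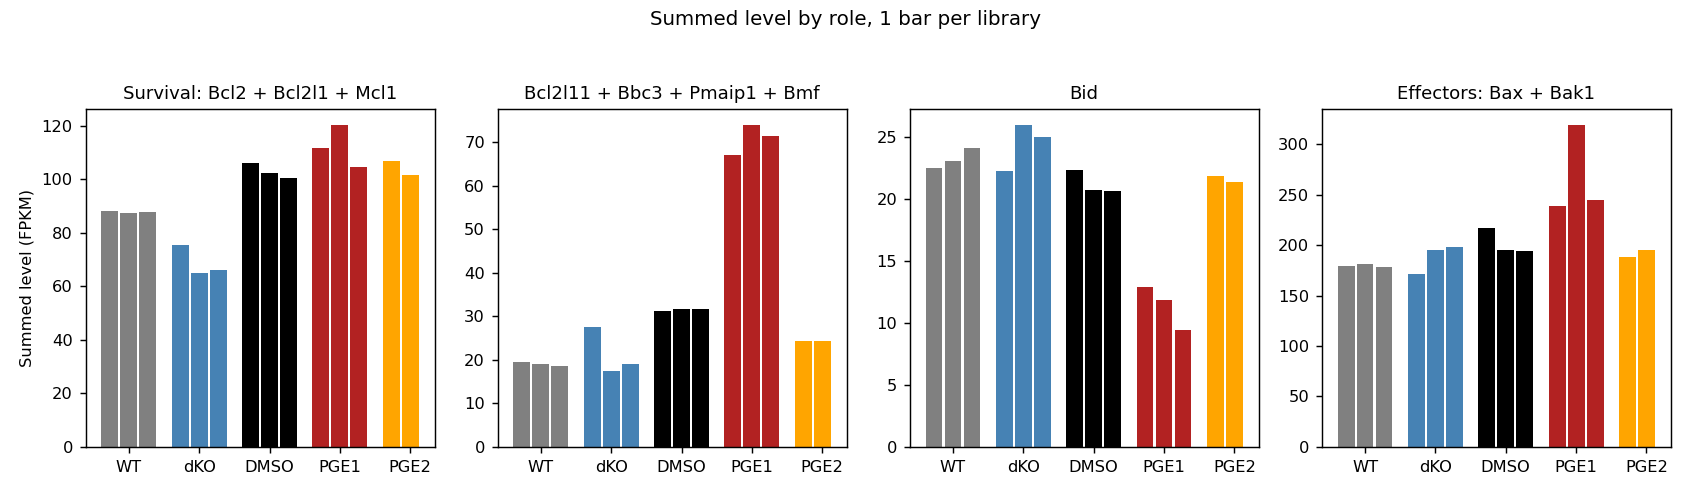
Summed level in FPKM (linear axis from 0), 1 bar per library in the order of the replicates, for the survival genes, the 4 BH3-only genes other than Bid, Bid alone and the effectors. The 3 PGE1 bars of the 4 BH3-only genes reach 67.0 to 73.8 FPKM against 31.3 to 31.6 with DMSO and 24.3 with PGE2, while Bid is lowest with PGE1.

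With PGE2 at the same dose and time, 1 of the 10 members passed against DMSO, in the lower direction, where 5.57% of all genes tested passed (0.996% higher and 4.57% lower). The member was Bbc3, at 9.51 and 9.46 FPKM in the 2 PGE2 libraries against 14.4, 12.9 and 13.4 with DMSO. Both PGE2 values lay below all DMSO values, and the mean was 1.43-fold lower (log2 difference -0.47 ± 0.09, SE; limma adjusted p = 0.01612). The call was lost without DMSO replicate 3 (adjusted p = 0.0667), without either PGE2 library (0.146 and 0.158) and with all 14 libraries in 1 fit (0.0674).

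Bcl2l11 was also low with PGE2, at 4.19 and 3.76 FPKM against 4.67, 6.06 and 6.25, without overlap, but did not pass (log2 difference -0.41, 95% interval -0.68 to -0.15; limma adjusted p = 0.07702). It passed without DMSO replicate 1 (adjusted p = 0.0197) and with all 14 libraries in 1 fit (0.0258). Bmf stood at 0.960 and 0.858 FPKM with PGE2 against 1.12 to 1.48 with DMSO and did not pass (log2 difference -0.29; limma adjusted p = 0.2468). Over the members the median log2 difference was -0.10, against 0.00 over all genes tested. The spread in this fit was shared with the PGE1 libraries: 626 genes passed, and 1218 without PGE1 replicate 2.

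The 7 other members differed from DMSO by less than the test could call. Their 95% intervals on the log2 scale ran from -0.32 to 0.07 for Pmaip1, -0.24 to 0.28 for Bid, -0.10 to 0.41 for Bcl2, -0.36 to 0.15 for Bcl2l1, -0.14 to 0.21 for Mcl1, -0.40 to 0.22 for Bax and -0.25 to 0.18 for Bak1. For Bid and Bcl2l1 these intervals leave out the mean falls seen with PGE1, and for Pmaip1, Bax and Mcl1 the mean rises. The Mcl1 rise with PGE1 has an interval of its own, from 0.11 to 0.43, which overlaps that with PGE2. Both contrasts share the DMSO libraries, so only the direct test below compares the compounds.

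PGE1 and PGE2 are close analogs: PGE2 has an additional carbon-carbon double bond in the side chain that ends in the acid group. They were compared directly, as the single pair of compounds in the study, at 20 µM and 6 h. The 2 contrasts with DMSO share the DMSO libraries, so the direct test, and not their side-by-side values, shows the difference. By it 9 of the 10 members differed, 6 higher and 3 lower with PGE1, where 53.9% of all genes tested differed, 27.2% higher and 26.7% lower. The median log2 difference was 0.43 over the members and 0.02 over all genes.

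The 3 widest gaps were again among the BH3-only genes. Bcl2l11 was 4.67-fold higher with PGE1 than with PGE2 (log2 difference 1.97 ± 0.12, SE; limma adjusted p = 7.891e-06). Bmf was 5.14-fold higher (1.56 ± 0.13; limma adjusted p = 3.099e-05) and Bbc3 3.34-fold higher (1.63 ± 0.09; limma adjusted p = 6.118e-06). In all 3 genes the PGE1 libraries lay above DMSO and the PGE2 libraries below it, so these gaps were wider than those between PGE1 and DMSO. Pmaip1 was at 9.66 and 10.2 FPKM with PGE2 and 1.60-fold higher with PGE1 (limma adjusted p = 0.0003488). Bid, at 21.9 and 21.4 FPKM with PGE2, was 1.90-fold lower with PGE1 (limma adjusted p = 0.000272).

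Bcl2l1 was at 16.6 and 16.03 FPKM with PGE2 and 1.56-fold lower with PGE1 (limma adjusted p = 0.00204). Bax, at 131 FPKM in both PGE2 libraries, was 1.56-fold higher with PGE1 (limma adjusted p = 0.004793). The 2 smallest calls were Bcl2, at 4.62 and 4.68 FPKM with PGE2 and 1.37-fold lower with PGE1 (limma adjusted p = 0.02142), and Mcl1, at 85.8 and 80.8 FPKM and 1.18-fold higher (limma adjusted p = 0.02993). Both lost the call without either PGE2 library (adjusted p of 0.0927 and 0.104 for Bcl2, 0.0782 and 0.199 for Mcl1), and Mcl1 also with median-of-ratios scaling (0.0553) and without DMSO replicate 2 (0.0543) or 3 (0.0509). Bak1, at 57.0 and 64.6 FPKM with PGE2, did not pass, with a 95% interval of the log2 difference from -0.15 to 0.28 (limma adjusted p = 0.572); it passed as higher with quantile normalization alone (0.0308). The 11 genes of the neutrophil list summed to 6887 to 6964 FPKM with PGE2, with Mpo, Elane and Prtn3 at means of 1946, 1832 and 1030. They were lower with PGE1 in 10 cases and higher in none. Of the 10 monocyte and macrophage genes 8 were lower and 1 higher. The erythroid genes summed to 36.5 to 37.5 FPKM with PGE2, with Car2 at a mean of 14.3. Xist was at 14.6 and 14.9 FPKM there and at a mean of 5.95 with PGE1. Of the 5 sex-linked genes 3 were called higher and 1 lower with PGE1. The compounds and a different mix of male and female cells cannot be told apart here either. The part of these genes in the members' differences was not tested.

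**Figure D3:**
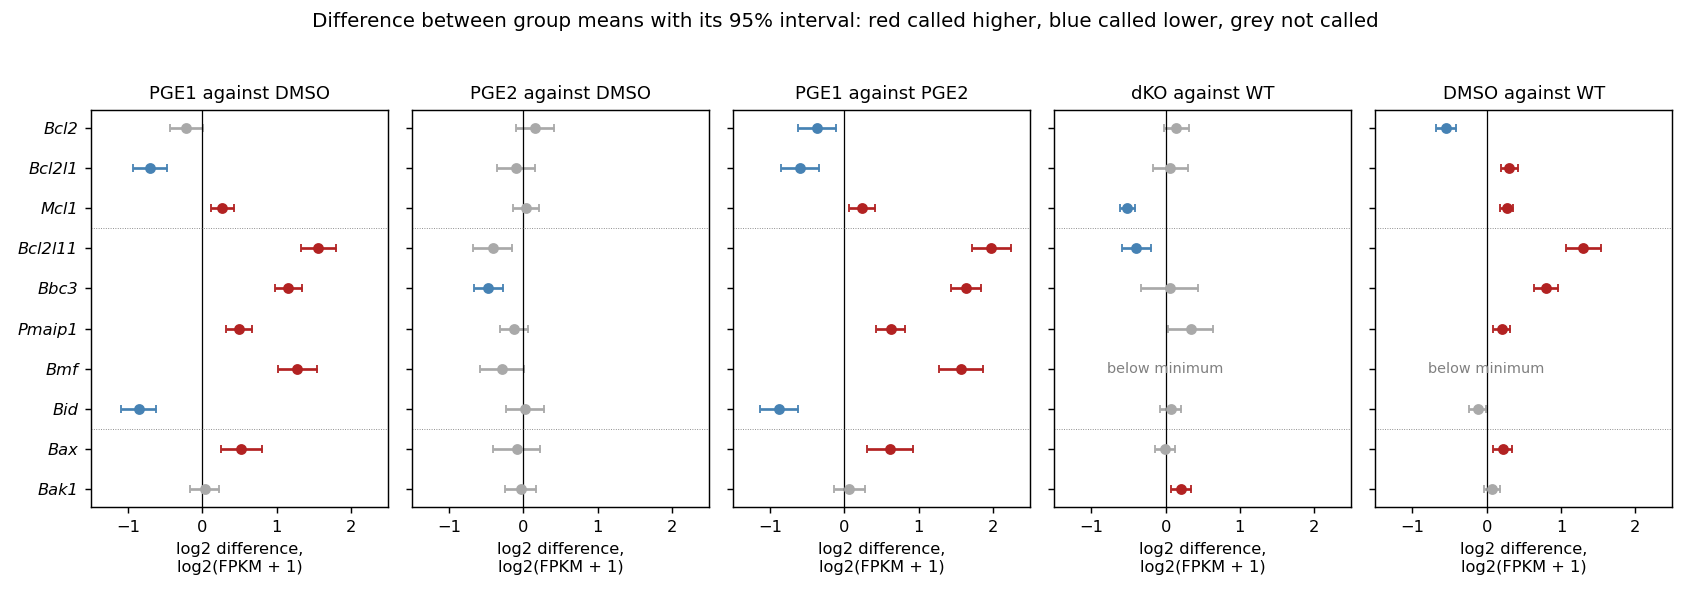
Log2 difference of each member on the log2(FPKM + 1) scale (horizontal axis, point) with its 95% interval (bar) in 5 comparisons, in red where called higher, blue where called lower and grey where not called; dotted lines part survival, BH3-only and effector genes. Bcl2l11, Bbc3 and Bmf lie furthest to the right in PGE1 against PGE2, at 1.97, 1.63 and 1.56, and left of 0 in PGE2 against DMSO, where Bbc3 alone is called.

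Bcl2l11, Bbc3 and Bmf were all called higher with PGE1, against DMSO and against PGE2. In dKO against WT they did not move alike, since Bcl2l11 was called lower and Bbc3 did not pass. The sequences just upstream of the annotated starts of these 3 genes are given. They come from the RefSeq promoter table of build GRCm38.p6, whereas the expression files were made on mm9, and read 5′ to 3′ toward the gene, with matches to 3 of the 7 motifs searched in capitals: the forkhead motif GTAAACA, the cyclic AMP response element TGACGTCA and its TGACG piece, each on either strand. The motifs were chosen after the expression values were seen, and TGACG lies inside TGACGTCA. Each gene has more than 1 annotated start, and 1 window with a match is shown per gene; another Bbc3 window and the Bcl2 window, not shown, hold TGACG. The Bcl2l11 window lies outside the annotated exons of its gene, the Bbc3 window lies in an intron of the longer Bbc3 transcript, and the Bmf window shares 1 base with a Bmf exon.
Bcl2l11, chr2:128125788-128126037, plus strand: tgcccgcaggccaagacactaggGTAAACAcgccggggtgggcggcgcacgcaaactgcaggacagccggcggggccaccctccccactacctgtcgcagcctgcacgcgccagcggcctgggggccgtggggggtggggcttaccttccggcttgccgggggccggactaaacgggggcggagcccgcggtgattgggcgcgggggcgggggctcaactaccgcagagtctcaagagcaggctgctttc
Bbc3, chr7:16310011-16310260, plus strand: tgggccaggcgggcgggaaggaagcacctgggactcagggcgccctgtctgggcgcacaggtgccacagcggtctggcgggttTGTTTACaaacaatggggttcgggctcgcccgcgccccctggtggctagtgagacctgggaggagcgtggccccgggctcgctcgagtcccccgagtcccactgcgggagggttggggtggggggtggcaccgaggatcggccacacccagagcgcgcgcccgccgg
Bmf, chr2:118549687-118549936, minus strand: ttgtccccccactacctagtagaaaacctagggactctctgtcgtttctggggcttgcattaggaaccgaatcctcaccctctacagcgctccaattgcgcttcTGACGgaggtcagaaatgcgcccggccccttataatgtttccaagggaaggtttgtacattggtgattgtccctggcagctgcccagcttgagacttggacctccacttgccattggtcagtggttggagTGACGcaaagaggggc

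The Bcl2l11 and Bbc3 windows each hold GTAAACA, on opposite strands, and the Bmf window holds TGACG at 2 places. GTAAACA is found in 3.2% of the 32851 windows of this length in the table, TGACGTCA in 1.5% and TGACG in 17.8%. These are shares of windows, and a gene with more than 1 start has more than 1 window in which a match can occur. No window of any of the 9 members searched held TGACGTCA. The other motifs searched, on either strand, were AP-1 (TGANTCA, in 6.7% of the windows), STAT (TTCNNNGAA, 7.0%), an E-box (CACGTG, 6.0%) and Tcf/Lef (CTTTGA, 13.8%). The E-box is found in a Bbc3 window that is not shown and in the Bax window, the Tcf/Lef motif in the Bax window, and neither AP-1 nor STAT in any member's windows. These are matches of letters and say nothing about binding in these cells.

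Between the untreated dKO and WT cells, 3 of the 9 members tested passed, 1 higher and 2 lower, where 40.9% of the 10721 genes tested passed, 18.0% higher and 22.9% lower. The share of the members is therefore near the background. The median log2 difference was 0.06 over the members and -0.01 over all genes. Of all calls 44.1% were in the higher direction, against 60.2% with quantile normalization and 56.1% with median-of-ratios scaling, so directions of small differences here depend on the scaling.

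Mcl1 had the clearest difference. It stood at 67.4, 66.8 and 67.5 FPKM in the WT libraries and at 49.8, 45.2 and 45.3 in the dKO libraries, with no overlap and a 1.44-fold lower mean (log2 difference -0.52 ± 0.05, SE; limma adjusted p = 0.0001128). Its call and direction held in every setting. Bcl2 was at 6.34, 6.67 and 6.31 FPKM in WT and at 8.12, 6.97 and 6.67 in dKO, and Bcl2l1 at 14.4, 13.9 and 13.8 against 17.6, 12.8 and 14.2; both overlapped and neither passed (limma adjusted p = 0.1383 and 0.6336). With quantile normalization Bcl2 passed as higher (0.0116). With Mcl1 the largest of the 3, the survival genes summed to 65.0 to 75.5 FPKM in dKO and 87.4 to 88.2 in WT. The Bcl2 level was 14.7% to 16.3% of the Mcl1 level in the dKO libraries and 9.35% to 9.98% in the WT libraries.

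Among the BH3-only genes Bcl2l11 was lower, at 1.03, 0.924 and 1.19 FPKM in dKO (72 to 91 reads per library) against 1.57, 1.85 and 1.65 in WT (118 to 137 reads). The groups did not overlap, and the mean was 1.61-fold lower (log2 difference -0.39 ± 0.09, SE; limma adjusted p = 0.008658); with quantile normalization the difference was -0.15 and did not pass (0.1946). Bmf, too low for the fit, went the same way, at 0.167, 0.0837 and 0.0263 FPKM in dKO (4 to 24 reads per library) against 0.514, 0.550 and 0.611 in WT (77 to 93 reads). Its groups did not overlap either, and the exact two-sided permutation test over the 6 libraries gave p = 0.1, the smallest that 3 against 3 allows. Pmaip1 was at 9.25, 9.54 and 9.29 FPKM in WT and at 15.6, 10.2 and 11.1 in dKO, all above WT, with dKO replicate 1 the highest. It did not pass (log2 difference 0.34, 95% interval 0.03 to 0.64; limma adjusted p = 0.07605), but passed as higher without dKO replicate 1 (0.0296) or dKO replicate 2 (0.0319), with quantile normalization (0.0375), with median-of-ratios scaling (0.0434) and with all 14 libraries in 1 fit (0.0396). Bbc3 and Bid did not pass. dKO replicate 1 was the highest of its group for Bbc3, at 10.7 against 6.33 and 6.68 FPKM, and without it Bid passed as higher (0.0379).

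Of the effectors, Bak1 was called higher in dKO and Bax did not pass. Bak1 stood at 61.1, 58.5 and 58.1 FPKM in WT and at 63.6, 68.8 and 74.1 in dKO, without overlap and with a 1.16-fold higher mean (log2 difference 0.21 ± 0.06, SE; limma adjusted p = 0.02135). The call was lost with quantile normalization (0.0792), with all 14 libraries in 1 fit (0.0510) and without WT replicate 2 (0.0719) or 3 (0.0763) or dKO replicate 2 (0.0521) or 3 (0.0502). Bax, at 118, 122 and 120 FPKM in WT and at 108, 127 and 124 in dKO, did not pass (log2 difference -0.01, 95% interval -0.15 to 0.13; limma adjusted p = 0.9109).

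Marker genes of other cell types also differed between dKO and WT. All 10 monocyte and macrophage markers were lower, summing to 123 to 134 FPKM in dKO and 815 to 849 in WT, and all 7 megakaryocyte markers were lower, at 54.4 to 105.5 against 232 to 254. Ly6a, by whose product the cells were sorted, was at 3.12 FPKM against 11.3. The Y-linked genes Ddx3y, Eif2s3y, Kdm5d and Uty were at 0 in all 3 dKO libraries, and Ddx3y averaged 8.45 FPKM in WT. Genotype and the sex of the mice therefore cannot be told apart, and the part of these markers in the members' differences was not tested.

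The solvent-treated cells differed from the untreated WT cells in most of the family. Of the 9 members tested 7 passed, 6 higher and 1 lower in DMSO, where 56.6% of 11115 genes tested passed, 26.0% higher and 30.7% lower. The further 6 h with solvent and the separate set of libraries, of lower depth, cannot be told apart. Cell type markers differed as well. Mast cell and basophil genes summed to 343 to 354 FPKM with DMSO and 175 to 181 in WT, with 4 of 7 higher and 1 lower. Gzmb had the largest part in that rise, from a mean of 38.1 in WT to 161.3 with DMSO. Mcpt8 went from 40.4 to 83.3, and Cpa3 from 24.6 down to 17.4. Neutrophil genes summed to 4700 to 5591 FPKM against 6977 to 7316, with 3 of 11 higher and 6 lower. Mpo, Elane and Prtn3 had the largest part in that fall, from means of 2499, 2030 and 1158 in WT to 1331, 1275 and 743 with DMSO. The part of all these markers in the members' differences was not tested. The median log2 difference was 0.22 over the members and -0.03 over all genes.

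Of the 3 BH3-only genes that rose most with PGE1, Bcl2l11 and Bbc3 were already higher with DMSO than in WT. Bcl2l11 was 3.35-fold higher, at 5.66 ± 0.861 against 1.69 ± 0.147 FPKM (SD, n = 3 each; log2 difference 1.30 ± 0.10, SE; limma adjusted p = 3.174e-05). Bbc3 was 1.84-fold higher, at 13.6 ± 0.768 against 7.38 ± 0.65 FPKM (limma adjusted p = 4.946e-05). Bmf, too low for the fit, was at 1.34 ± 0.189 against 0.558 ± 0.0488 FPKM without overlap (exact permutation p = 0.1, the smallest possible). Across PGE1, DMSO and WT the mean of Bcl2l11 was thus 18.6, 5.66 and 1.69 FPKM, with no overlap between these groups.

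Among the survival genes Bcl2 was 1.58-fold lower with DMSO, at 4.08 ± 0.203 against 6.44 ± 0.201 FPKM (log2 difference -0.55 ± 0.06, SE; limma adjusted p = 0.0001317). Bcl2l1 was 1.25-fold higher (limma adjusted p = 0.001132) and Mcl1 1.21-fold higher (0.0005945). The Bcl2 level was 4.66% to 5.33% of the Mcl1 level with DMSO, against 9.35% to 9.98% in WT. Pmaip1 and Bax were 1.17-fold and 1.16-fold higher (limma adjusted p = 0.009 and 0.01024), and both lost the call with all 14 libraries in 1 fit (0.1586 and 0.1052). Bid (0.06187) and Bak1 (0.2308) did not pass, though Bid passed as lower without DMSO replicate 1 (0.009454) and Bak1 as higher with quantile normalization (0.004017).

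The rest of the death machinery was counted from 7 lists of 83 genes. With PGE1 against DMSO, 7 of the 8 inhibitor of apoptosis genes tested rose and none fell, where 49.1% of all genes passed, 23.6% higher and 25.5% lower. The other lists are to be read against the same shares. They included Birc2, at 9.93 ± 0.58 against 5.71 ± 0.149 FPKM, and Birc3, at 13.8 ± 1.11 against 7.33 ± 0.884 (SD, n = 3 each; limma adjusted p = 6.606e-05 and 0.0001581), which encode the ubiquitin ligases cIAP1 and cIAP2. Naip2 was the third, 1.56-fold higher. Naip5 and Naip6 are also among the 7, and the reads of the Naip genes are uncertain, as stated below. Of the 13 apoptosome and caspase genes 4 rose and 4 fell. Among them Casp6 fell from 21.6 ± 1.56 to 9.01 ± 0.371 FPKM (limma adjusted p = 5.951e-06) and Htra2, a mitochondrial protease, from 39.5 ± 2.65 to 23.7 ± 1.41 (8.207e-05).

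In the 6 genes of the death receptor list 2 rose, Cflar, which encodes the caspase-8 inhibitor c-FLIP, 1.38-fold, and the TNF receptor Tnfrsf1a 1.27-fold (limma adjusted p = 0.003247 and 0.007031). Of 9 mitochondrial partners 1 rose and 3 fell, the 3 being Mfn2, Vdac2 and Vdac1 and the first Ppif, whose call was lost without DMSO replicate 2 (limma adjusted p = 0.0882). Of 7 other BCL2 family genes Bnip3l and Bcl2l2 rose and Bnip3 fell, the last from 14.5 ± 0.888 to 8.52 ± 2.1 FPKM (limma adjusted p = 0.00219); Bcl2l2 lost its call without DMSO replicate 1 (limma adjusted p = 0.0887) or PGE1 replicate 3 (0.0842) and with no minimum level. The near-identical copies of Bcl2a1 and the Naip genes are uncertain, since shared reads can be split between them. Of 11 genes listed under the turnover of MCL1 and BIM protein 3 passed as higher and 1 as lower. The last was Trib1, at 6.28 ± 0.219 against 12.8 ± 1.02 FPKM (limma adjusted p = 2.435e-05). Its place in this list is by choice, and a part of Trib1 in the turnover of MCL1 or BIM was not tested. The 3 higher were Gsk3a, Gsk3b and Mapk3 (limma adjusted p = 0.0242, 0.04472 and 0.04916). All 3 of these calls were lost without DMSO replicate 2 (0.106, 0.0705 and 0.146), without PGE2 replicate 1 (0.0508, 0.0604 and 0.0798) and without PGE2 replicate 2 (0.0509, 0.0605 and 0.0799), so that 0 were higher and Trib1 alone was called. Without DMSO replicate 1 or 3, 1 was higher.

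Of 15 transcription factors known to act on the members, 7 rose and 3 fell with PGE1. Stat3 rose 1.79-fold and Foxo4 1.75-fold, while Myc fell from 68.8 ± 3.64 to 13.96 ± 6.67 FPKM (limma adjusted p = 8.65e-06, 9.808e-05 and 9.822e-05). Foxo1 was at 4.85 ± 0.547 FPKM with PGE1 and 1.72 ± 0.137 with PGE2 (n = 3 and 2; limma adjusted p = 0.0001224 for the difference between the prostaglandins). Foxo3 and Trp53, named after their values were seen because they are known activators of Bbc3 and Bcl2l11 or Bbc3 and Pmaip1, did not pass against DMSO, at 28.1 ± 7.68 against 21.4 ± 2.88 FPKM (limma adjusted p = 0.1497) and 53.8 ± 2.45 against 49.8 ± 2.57 (0.1956). Between the prostaglandins Trp53 was 1.15-fold higher with PGE1 (limma adjusted p = 0.04381) and Foxo3 did not pass (0.3019). The Trp53 call was lost with median-of-ratios scaling (0.0796) and without DMSO replicate 2 or 3, PGE1 replicate 2 or 3, or either PGE2 library (adjusted p from 0.0665 to 0.272).

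With PGE2 against DMSO, where 5.57% of all genes passed, 3 genes of the 7 lists passed, and all fell: Trib1, 2.31-fold, Casp6, 1.67-fold, and Rela, 1.27-fold (limma adjusted p = 0.0001534, 0.001524 and 0.04411, the last lost with median-of-ratios scaling and without DMSO replicate 2, DMSO replicate 3, PGE1 replicate 3 or either PGE2 library, with adjusted p from 0.0551 to 0.329). This contrast and that of PGE1 share the DMSO libraries, in which both Trib1 and Casp6 were higher than in WT. Between PGE1 and PGE2 Trib1 did not pass (log2 difference 0.15; limma adjusted p = 0.1559), and Casp6 was lower with PGE1 (0.0009951).

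In dKO against WT 40.9% of all genes passed, 18.0% higher and 22.9% lower, and the shares called in the caspase, transcription factor and turnover lists were below that. Of 7 inhibitor of apoptosis genes 4 were lower, Xiap 1.36-fold, Naip5 2.10-fold, Birc2 1.30-fold and Birc3 1.22-fold (limma adjusted p = 0.0008005, 0.001053, 0.004324 and 0.03039, the last lost with quantile normalization and without WT replicate 1 or 2 or dKO replicate 2 or 3, with adjusted p from 0.0775 to 0.107), and none was higher. Of 9 mitochondrial partners Mfn2, Vdac1, Vdac3 and Ppif were higher, 1.14-fold to 1.21-fold, and none was lower. Casp6 was 2.25-fold lower, at 5.22 ± 0.674 against 11.8 ± 0.781 FPKM (limma adjusted p = 8.181e-05), in a list of 13 in which 3 were higher and 2 lower, and 2 and 1 without WT replicate 1 or WT replicate 3. Trib1 was at 1.03 ± 0.606 against 4.63 ± 0.775 FPKM (0.0008674), and 3 of its 11 list members were lower and none higher, but 2 were higher without dKO replicate 1. Of 15 transcription factors 2 were higher, Myc and Atf4, and 3 lower, Foxo1, Rela and Stat5b; Foxo1 lost its call with quantile normalization, Rela without WT replicate 1 or 3 or dKO replicate 3 (limma adjusted p from 0.0521 to 0.0608), and Stat5b without WT replicate 2 or 3 or dKO replicate 2 (from 0.0530 to 0.0768). Cflar was lower, though not with quantile normalization, as 1 of 5 death receptor genes, and Bcl2a1b as 1 of 6 other family genes.

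With DMSO against WT 5 of the 6 death receptor genes were higher and none lower, where 56.6% of all genes passed, 26.0% higher and 30.7% lower: Tradd, Tnfrsf1a, Cflar, Tnfrsf10b and Ripk1, 1.18-fold to 1.60-fold. Ripk1 lost its call without WT replicate 2 or DMSO replicate 2 or 3 (limma adjusted p from 0.0579 to 0.0635), and Tnfrsf10b without WT replicate 3 (0.0523). The number higher was 3 without DMSO replicate 2 or DMSO replicate 3. Tnfrsf10b, at means of 1.25 FPKM with DMSO and 0.783 in WT, lies near the minimum of 1 FPKM, under which a gene is not tested. Casp6 was 1.84-fold higher and Trib1 2.77-fold higher (limma adjusted p = 3.433e-05 and 2.915e-05). Birc3 was higher and Birc5 lower in a list of 8 with 3 higher and 1 lower, and with 6 higher and 1 lower without DMSO replicate 1. The caspase list had 5 higher and 5 lower of 13, the transcription factors 5 higher and 4 lower of 15, among them Ddit3 1.78-fold higher and Myc 1.45-fold lower, and the mitochondrial partners 4 lower and none higher of 9.

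**Figure D4:**
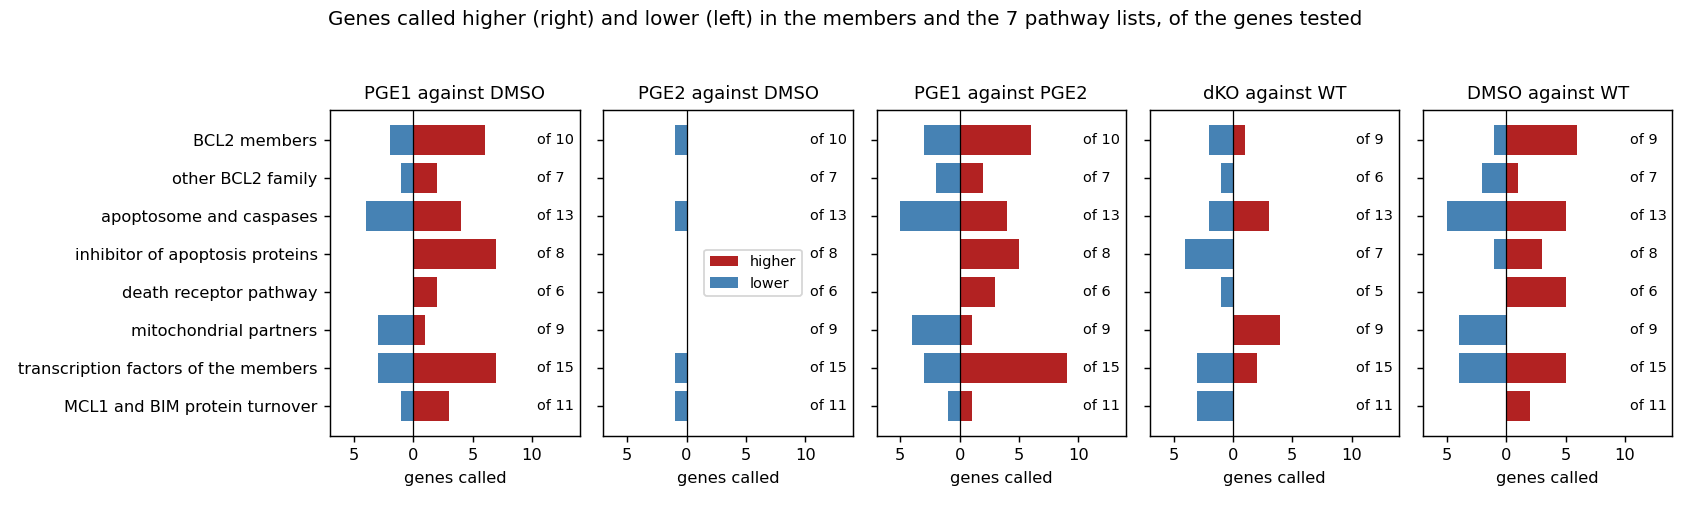
Number of genes called higher (red, to the right) and lower (blue, to the left) in limma at an adjusted p under 0.05, for the 10 members and the 7 pathway lists in 5 comparisons, with the number of genes tested at the right. In PGE1 against DMSO 7 of 8 inhibitor of apoptosis genes are called higher, among them Naip2, Naip5 and Naip6, whose reads are uncertain. In PGE2 against DMSO 1 member and 3 listed genes are called, all lower.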

How the data were processed

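RNA-seq of 14 libraries of sorted, BCR-ABL-transduced mouse marrow cells was analysed. The deposited FPKM values, 1 per gene and library, were made by the authors with CASAVA 1.8, TopHat and Cufflinks on mouse build mm9, per the submitters' processing notes; strand handling and gene annotation are stated in none of the sources used here. Groups came from the sample titles. Two-sided tests on log2(FPKM + 1) used limma's moderated linear model with a trend in the variance (version 3.58.1, R 4.3.3). A gene entered if it averaged 1 FPKM or more among the libraries fitted, and calls needed a p-value under 0.05 after Benjamini-Hochberg adjustment across every gene entered. Separate models held WT with dKO (6 libraries), the treated groups (8) and WT with DMSO (6). Bmf, under that minimum in 2 comparisons, was tested by exact permutation on FPKM. Fold changes are ratios of mean FPKM. Whole reads were recovered from the FPKM steps (100% of 19057 genes with reads within 0.0001 of a read) and served for depths and for voom as an alternative; reads cover counting error only. Python 3.11.15 (numpy 2.4.6, pandas 2.3.3, matplotlib 3.10.9) did the rest. The fits were also run on simulated data with the same spread in every library. No simulated library stood apart as some do here, so that run does not cover this feature of the data. Pathway genes named with values come from the up to 3 per list and comparison with the smallest adjusted p, or from all that passed where 5 or fewer did; not every one of these is named, and a gene named in 1 comparison may be followed into another. The members and lists were chosen with earlier results of these data known. Alternatives were another pseudocount (0.1), no minimum or 5 FPKM, quantile and median-of-ratios scaling, all libraries in 1 fit, voom, a replicate block and leaving out each library; a fit without both DMSO replicate 1 and PGE1 replicate 2 was chosen after seeing the data. Bases upstream of Pmaip1, and 1 pathway gene picked by the naming rule, are not reported here.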

Additional observations from a re-analysis of the deposited data

Results flagged for a closer look

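The levels with PGE1 and PGE2 differed from each other in 9 of the 10 members by limma's direct test between the treatments at 20 µM and 6 h. Against PGE2, the PGE1 log2 difference on the log2(FPKM + 1) scale was 1.97 for Bcl2l11, 1.63 for Bbc3, 1.56 for Bmf, 0.62 for Pmaip1, 0.62 for Bax and 0.23 for Mcl1. It was -0.88 for Bid, -0.60 for Bcl2l1 and -0.37 for Bcl2. In this comparison 53.9% of all genes tested were called, and PGE2 has 2 libraries.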

How the results depend on the processing

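The number of members called stayed within 1.5 times its value in 72 fits with another setting, and did not in 7 fits of dKO against WT and PGE2 against DMSO. It stayed within it in every fit run of PGE1 against DMSO (7 to 8 members), of PGE1 against PGE2 (7 to 10) and of DMSO against WT (6 to 8). With each library left out in turn, it ran from 2 to 5 in dKO against WT, with 5 without dKO replicate 1, and from 0 to 2 in PGE2 against DMSO, where it was also 2 without both DMSO replicate 1 and PGE1 replicate 2. The causes were not tested. Bmf in dKO against WT passed in limma with no minimum level and with all 14 libraries in 1 fit (log2 difference -0.51, adjusted p = 0.001329 and 0.00189; -0.56 to -0.47 with libraries left out), and in DMSO against WT likewise (0.58, adjusted p = 0.001773 and 0.0005044; 0.54 to 0.65 with libraries left out), since those fits test it.

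Members near 0 changed sign. With libraries left out, the log2 difference in dKO against WT ran from -0.0556 to 0.1589 for Bcl2l1, from -0.1568 to 0.1774 for Bbc3 and from -0.0523 to 0.0598 for Bax (0.0377 with median-of-ratios scaling). Bak1 ran from -0.0447 to 0.0732 in PGE1 against DMSO, from -0.1237 to 0.0524 in PGE2 against DMSO and from -0.0213 to 0.1547 in PGE1 against PGE2, and without both libraries it was -0.0078, 0.0013 and -0.0091. Mcl1 in PGE2 against DMSO ran from -0.0069 to 0.0783. No named pathway gene changed sign.

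Same-numbered replicates did not deviate together in all pairs (correlations of -0.27 to 0.26), so they were not treated as pairs. With the replicate block the members called were 3, 8, 0, 9 and 7 in dKO against WT, PGE1 against DMSO, PGE2 against DMSO, PGE1 against PGE2 and DMSO against WT, and Bid in PGE2 against DMSO was -0.0463. Genes called in PGE2 against DMSO numbered 626 in the main fit, 269 with the block and 236 without DMSO replicate 3. They numbered 1218 without PGE1 replicate 2 and 1207 with all 14 libraries in 1 fit. Without both PGE1 replicate 2 and DMSO replicate 1 they numbered 1763. The main fit takes its spread from the PGE1 libraries as well, so this count depends on them.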
